A study of Mus musculus with 8 samples.

Results

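The 10 genes described here are the core iron handling genes of the liver. They were taken by symbol from the 23282 gene rows of 8 gene count columns: Hamp, Bmp6, Hfe, Tfr2, Trf, Tfrc, Fth1, Ftl1, Slc40a1 and Cp. All 10 had 1 row each. The study gave ovariectomized female CD-1 mice bisphenol A (BPA, an industrial estrogen-like chemical), Korean red ginseng extract (KRG), or both by mouth, and profiled liver and uterus by QuantSeq, a method that reads 1 fragment near the 3' end of each transcript. The mice were operated on at 6 weeks of age and rested for 1 week, so every group, the control included, lacked ovaries. In each tissue the 4 groups were a control without either agent, BPA at 200 mg/kg/day for 7 days, KRG at 1.2 g/kg/day for 7 days, and both agents at those doses. Each group was 1 library, and the labels leave unstated if it was made from 1 animal or a pool, and if the 2 tissues share animals.

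Body iron is set by how much of it enters plasma. Hepcidin, the peptide hormone made from Hamp in hepatocytes, binds the iron exporter ferroportin (Slc40a1) and has it degraded, which keeps iron inside macrophages, hepatocytes and gut cells. Hepatocytes sense iron through a BMP ligand (Bmp6, made mainly by the endothelial cells of the liver), through Hfe and through transferrin receptor 2 (Tfr2), and BMP signalling drives both Hamp and the Id genes. Inside each cell, iron regulatory proteins bind stem-loops in mRNAs: a loop in the 5' UTR blocks translation, and loops in the 3' UTR protect the mRNA from decay.

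That second layer can be read from the members' own sequences. A loop of CAGTG and 1 more base other than G, on a stem of 5 pairs with a bulged C, was sought in the UTRs of protein-coding transcripts of GENCODE M21 (build GRCm38, T written for U). It was present in the 5' UTR of 23 of 21877 protein-coding genes (0.105%) and in the 3' UTR of 100 (0.457%). Among the members it was found in the 5' UTRs of Fth1, Ftl1 and Slc40a1, at 1 site each, and at 4 sites in the 3' UTR of Tfrc. The other 6 members held none by this rule. Alas2, an erythroid heme synthesis gene outside the members, also held it in its 5' UTR. Slc11a2 and Epas1, likewise searched by name outside the members, held none, and a strict rule of this kind can miss loops that depart from it. The sites are shown because they separate the members whose mRNA level can follow cell iron (Tfrc) from those controlled at translation (the ferritins and ferroportin). Capitals mark the 6 bases of the loop, and each run is 30 bases, 5′ to 3′ on the strand of the gene.
Fth1, 5' UTR, chr19:9982732-9982761, plus strand: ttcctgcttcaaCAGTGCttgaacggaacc
Ftl1, 5' UTR, chr7:45459778-45459807, minus strand: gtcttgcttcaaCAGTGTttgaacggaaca
Slc40a1, 5' UTR, chr1:45925464-45925493, minus strand: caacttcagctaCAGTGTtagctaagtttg
Tfrc, 3' UTR, chr16:32631219-32631248, plus strand: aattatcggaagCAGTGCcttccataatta
Tfrc, 3' UTR, chr16:32631598-32631627, plus strand: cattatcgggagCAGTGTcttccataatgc
Tfrc, 3' UTR, chr16:32631663-32631692, plus strand: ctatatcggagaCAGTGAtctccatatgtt
Tfrc, 3' UTR, chr16:32631710-32631739, plus strand: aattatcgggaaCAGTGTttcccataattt

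Library totals ran from 12372073 to 15290950 counts, and Rn45s, a ribosomal RNA row, took 8.30% to 12.4% of them. Levels are CPM, the gene's share of the column total scaled to 1000000 counts. Because QuantSeq gives about 1 fragment per transcript, levels of different genes are compared here without a correction for length. The 10 hepatocyte markers were all above 0 in every liver library and summed to 32891 to 35817 CPM there. Other marker sets were uneven between single libraries: acinar pancreas markers summed to 1580 CPM in the BPA liver against 153 to 239 in the other 3, and bladder lining markers to 5930 and 10260 CPM in the BPA and both-agent uteri against 338 in control and 68.4 in KRG. In these bulk samples, fewer cells of a type and less RNA per cell cannot be told apart.

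With 1 library per group there is no test between 2 libraries, so library pairs are described by their ratio. A pair was called at least 2-fold apart where the log2 ratio of (CPM + 1) was 1 or more in size, and folds carry an exact (Clopper-Pearson) 95% interval that covers counting error only. The background is every gene that averaged 10 CPM or more in the tissue, 6709 in liver and 9198 in uterus. Of the members, 9 of 10 reached it in liver (all but Bmp6) and 6 in uterus (Trf, Tfrc, Fth1, Ftl1, Slc40a1 and Cp).

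**Figure D1:**
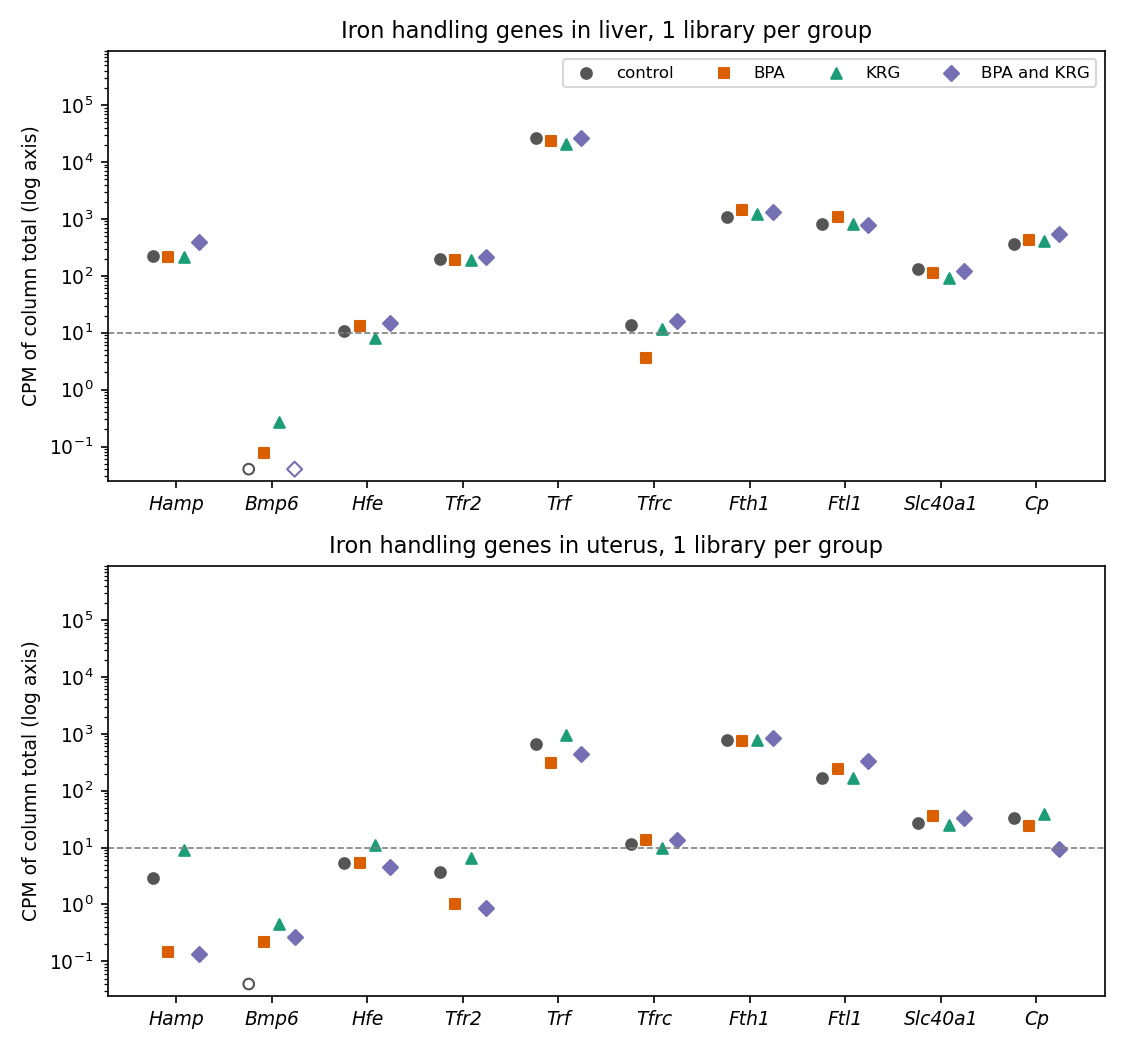
CPM of the 10 iron genes in each library, liver above and uterus below, on a log axis, with 1 point per library; open points at the bottom edge are counts of 0 and the dashed line is 10 CPM. Trf is the highest of the 10 in all 4 liver libraries, Tfrc is low in the BPA liver alone, and Hamp and Tfr2 fall below 10 CPM in all 4 uteri.

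The levels of the members in liver kept nearly the same order in the 4 libraries. Trf, which encodes the plasma iron carrier transferrin, stood at 26459 CPM in control, 23729 with BPA, 20347 with KRG and 26504 with both agents. It was the second most abundant row of every liver library and 2.03% to 2.65% of all counts. Gm20425, a protein-coding gene on the same strand, overlaps Trf, and how shared reads were counted is not given. The ferritin subunits Fth1 (heavy, which oxidizes iron) and Ftl1 (light) followed at 779 to 1428 CPM. Next came ceruloplasmin (Cp, the copper enzyme that oxidizes iron leaving cells), Hamp, Tfr2 and Slc40a1. Tfrc, the receptor that takes up transferrin in most cells, and Hfe, its partner protein, were both near 10 CPM. Bmp6 had 0, 1, 4 and 0 counts in the control, BPA, KRG and both-agent livers. The counts of 0 allow up to 0.196 CPM in control and 0.242 CPM with both agents, so Bmp6 was not measurable at this depth.

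Hepcidin itself was higher in the liver given both agents and nearly level in the other 3. Hamp stood at 221 CPM in control, 212 with BPA, 216 with KRG and 397 with both. The first 3 livers thus lay within a few percent of each other, and the both-agent liver was apart from them. The level with both agents was 1.87-fold that with BPA alone (interval 1.79 to 1.96), 1.84-fold that with KRG alone (1.76 to 1.92) and 1.79-fold control (1.72 to 1.87). None of these reached 2-fold.

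Mice carry a second copy, Hamp2, whose peptide is not known to control iron, and it moved otherwise. Hamp2 stood at 249 CPM in control, 156 with BPA, 265 with KRG and 176 with both agents, so both livers given BPA were below both without it. The level with BPA was 1.60-fold below control (1.52 to 1.69), and the level with both agents was 1.51-fold below KRG (1.43 to 1.59). Hamp made up 47.0% of the summed Hamp and Hamp2 counts in control (95% interval 45.9% to 48.2%), 57.7% with BPA (56.3% to 59.1%), 44.97% with KRG (43.8% to 46.1%) and 69.3% with both agents (68.2% to 70.4%). The sum of the pair was 471, 368, 481 and 573 CPM in the same order. In the additive edgeR fit over the 4 livers the BPA term was 0.41 ± 0.24 for Hamp (log2, SE, adjusted p = 0.849) and -0.63 ± 0.15 for Hamp2 (adjusted p = 0.849). Neither passed, and the KRG term was 0.40 ± 0.24 for Hamp (adjusted p = 1.00) and 0.09 ± 0.15 for Hamp2 (adjusted p = 1.00).

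**Figure D2:**
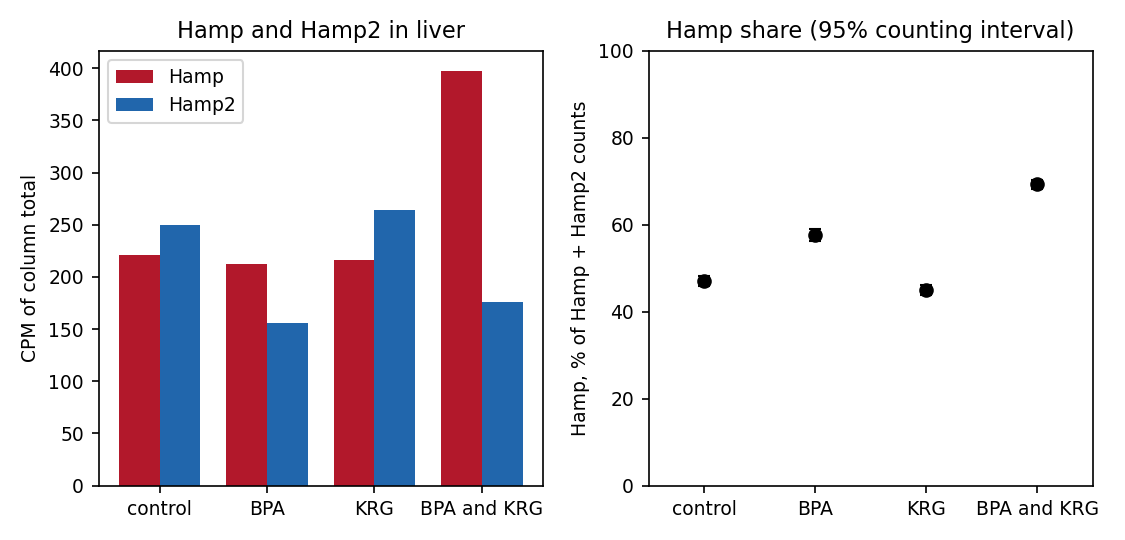
Left, CPM of Hamp and Hamp2 in the 4 liver libraries as bars from 0; right, Hamp as a percentage of the summed Hamp and Hamp2 counts with its exact 95% counting interval. The both-agent liver has the highest Hamp (397 CPM) and the highest share (69.3%), while Hamp2 is lowest in the BPA (156 CPM) and both-agent (176 CPM) livers.

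The copies lie 17686 bases apart on chromosome 7, Hamp at chr7:30942368-30944032 and Hamp2 at chr7:30922372-30924681, both on the minus strand (GRCm38). Their principal transcripts were 88.8% identical over 437 aligned columns, with a longest identical run of 87 bases. In an alignment of their last 200 bases, nearest to where QuantSeq reads start, 155 of 227 columns were identical (68.3%), with a longest run of 52. Columns with a gap count as not identical in that share. The 227 columns exceed the 200 bases of each copy, so the share understates how alike the aligned bases were. How reads that match both copies were counted is not given in the sources used here, so the split between Hamp and Hamp2 is uncertain while their sum is less so. A lincRNA, Gm44662, overlaps both genes on the opposite strand, and whether counting used strand is not given either.

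The copies also differ upstream, where the hepcidin gene receives its signals. The stretches below run from 150 to 11 bases before the RefSeq start (GRCm38.p6) and are shown because Hamp and Hamp2 moved differently in the same livers. Capitals mark GGCGCC, the core of the BMP response element, and TTCNNNGAA, the spaced palindrome bound by STAT factors.
Hamp, chr7:30944040-30944179, minus strand: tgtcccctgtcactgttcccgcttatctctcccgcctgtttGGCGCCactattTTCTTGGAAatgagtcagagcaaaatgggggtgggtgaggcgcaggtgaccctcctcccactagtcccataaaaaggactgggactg
Hamp2, chr7:30924192-30924331, minus strand: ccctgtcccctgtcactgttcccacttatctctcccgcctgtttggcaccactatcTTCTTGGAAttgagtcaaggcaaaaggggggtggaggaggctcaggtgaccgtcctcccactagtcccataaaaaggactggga
The stretches were 88.1% identical over 143 aligned columns. GGCGCC began 109 bases upstream of the start of Hamp, and the aligned word of Hamp2 differed from it by G4A (position 4 counted from the first base of the word). TTCTTGGAA began 97 bases upstream in Hamp and 94 in Hamp2. These distances are from the RefSeq starts. The Hamp2 stretch lies inside the GENCODE span of that gene, so RefSeq and GENCODE differ in where Hamp2 begins. Of 32851 RefSeq promoter windows of 300 bases, 11.9% held GGCGCC, which reads the same on both strands, and 8.30% held TTCNNNGAA, which is also its own reverse complement. Of the members, 8 of 10 had promoter entries, and the one other member with GGCGCC was Tfrc. A match is a description of letters, not of binding, and the part of these letters in the levels of Hamp and Hamp2 was not tested.

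The 5 genes whose pattern over the 4 livers was nearest to that of Hamp, by Euclidean distance of centred log2(CPM + 1), were Rcan2, Dopey1, Hectd2, 1500017E21Rik and Pls3. Rcan2, a regulator of calcineurin, stood at 56.4, 48.7, 49.8 and 92.6 CPM in control, BPA, KRG and both. Distances were 0.123 to 0.150, over 4 libraries. Hectd2 and 1500017E21Rik both stood at 33.8 CPM in control and differed by less than 1 CPM in every liver, so they may share reads. By the same measure Hamp2 ranked 6218.

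The iron sensing partners of hepcidin in liver varied to different degrees. Tfr2, the hepatocyte receptor that senses transferrin-bound iron, was 199, 189, 186 and 214 CPM in control, BPA, KRG and both, the narrowest spread of the members in liver (1.15-fold from lowest to highest). Hfe, which joins Tfr2 in that sensing, was 10.7, 13.3, 7.95 and 14.9 CPM. Hfe was thus lowest with KRG alone, and its level with both agents was 1.88-fold that with KRG (1.48 to 2.39). Among other regulators, Hfe2 (hemojuvelin, the BMP co-receptor that hepcidin needs) stood at 32.4, 50.3, 18.1 and 42.7 CPM, and Tmprss6 (the protease that cleaves hemojuvelin) at 277, 214, 244 and 274. Those 2 and Bmp2 (26.5, 25.5, 31.7 and 37.99 CPM), a BMP ligand of liver endothelium, were named after their values were seen.

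The Id genes, which BMP signalling turns on in hepatocytes together with Hamp, were lower in the BPA liver, where Hamp was within 1.04-fold of control. Id3 was 216 CPM in control, 49.9 with BPA, 138 with KRG and 249 with both agents. Id2 was 258, 130, 161 and 338, and Id1 was 19.1, 8.87, 27.1 and 16.8. All 3 were lowest in the BPA liver. Against control, Id3 was 4.33-fold lower (3.98 to 4.72), Id1 2.15-fold lower (1.73 to 2.70) and Id2 1.99-fold lower (1.88 to 2.11). With both agents Id3 was 4.99-fold above BPA alone (4.59 to 5.44). Between both agents and KRG alone the directions were not shared: Id2 and Id3 were higher with both, and Id1 was 1.61-fold lower (1.36 to 1.92). Atoh8, another BMP target on the same list of readouts, was 45.2, 56.3, 45.3 and 45.9 CPM and so highest with BPA, and the other 2 readouts on it averaged under 10 CPM in liver. In the additive fit none of these genes passed (edgeR adjusted p = 0.906 for Atoh8, 0.849 for Id1, 0.993 for Id2 and 0.913 for Id3 for BPA). Fgl1, a liver protein that lowers hepcidin by binding BMP6, was 2337, 1103, 2477 and 3282 CPM and so was also lowest with BPA.

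Transferrin receptor 1 had the widest spread of the members measured in liver. Tfrc stood at 13.5 CPM in control (207 counts), 3.55 with BPA (46 counts), 11.7 with KRG (170 counts) and 16.3 with both agents (202 counts). The BPA liver was below the other 3, which lay within 1.40-fold of each other. BPA against control was 3.82-fold lower (2.76 to 5.38), and both agents against BPA alone 4.60-fold higher (3.33 to 6.49). Both agents against KRG alone was 1.40-fold higher (1.14 to 1.73), so the low level was in 1 of the 2 livers given BPA. The additive fit gave a BPA term of -0.65 ± 0.60 (log2, SE, edgeR adjusted p = 0.881). The gene with the most similar pattern in liver, sought after this pattern was seen, was Sptssa (49.8, 14.96, 38.9 and 56.7 CPM), a subunit of the enzyme that starts sphingolipid synthesis. In the same 4 libraries the summed erythroid markers were 3749, 7348, 5401 and 1784 CPM and the acinar pancreas markers 239, 1580, 153 and 184. Both were highest in the BPA liver. Their part in the Tfrc level was not tested.

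**Figure D3:**
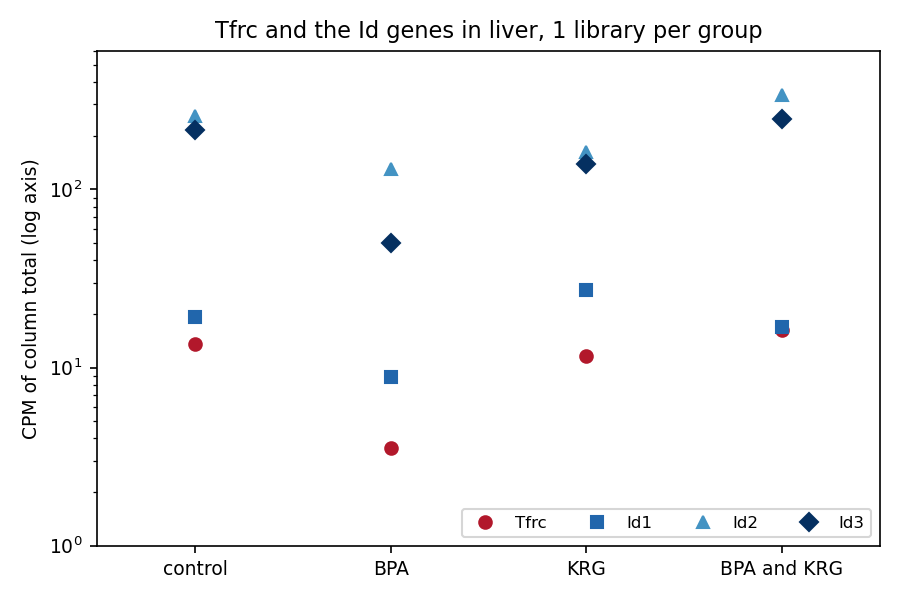
CPM of Tfrc, Id1, Id2 and Id3 in the 4 liver libraries on a log axis, 1 point per library. Each of the 4 genes has its lowest point in the BPA liver, at 3.55, 8.87, 130 and 49.9 CPM.

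The 3 members with a stem-loop in the 5' UTR spanned at most 1.44-fold in liver. Fth1 was 1090, 1428, 1221 and 1298 CPM and Ftl1 was 813, 1059, 821 and 779 CPM in control, BPA, KRG and both, so both subunits were highest with BPA. Slc40a1, the only known iron exporter of animal cells, was 130, 110, 90.7 and 123 CPM, lowest with KRG (1.44-fold below control, 1.34 to 1.54). Fth1 counts were 1.34 times those of Ftl1 in control (1.31 to 1.37), 1.35 with BPA (1.32 to 1.38), 1.49 with KRG (1.45 to 1.52) and 1.67 with both agents (1.63 to 1.71). The intervals of control and BPA overlapped, and those of the other 2 lay above them. Ferritin pseudogenes and, at the Ftl1 locus, Gm10252 on the opposite strand can share such reads. Cp was 366, 429, 409 and 537 CPM, highest with both agents (1.47-fold control, 1.42 to 1.52), and Hps3 overlaps it on the opposite strand.

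Few members in liver were 2-fold apart between libraries. BPA against control had 1 of 9 measured members at least 2-fold apart (Tfrc, lower) where 4.28% of background genes were, and both agents against BPA also had 1 (Tfrc, higher) where 3.68% were. KRG against control had 0 of 9 (background 2.34%), both agents against KRG 0 (2.79%) and both agents against control 0 (2.44%). In the both-agent against BPA pair the median of all background genes was itself shifted by 0.12 (log2). In the additive fits, edgeR called 0 of 9 members and 0% of genes for BPA, and 0 of 9 and 0% for KRG. Before adjustment, 357 and 221 genes had a p under 0.05, none of them a member. In DESeq2 there were 26 called genes (0.388%) for BPA and 49 (0.73%) for KRG, and also no member. These fits rest on 1 residual degree of freedom. Their p-values set each term against how far 4 single libraries depart from additive effects, so an interaction of the agents counts as error.

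**Figure D4:**
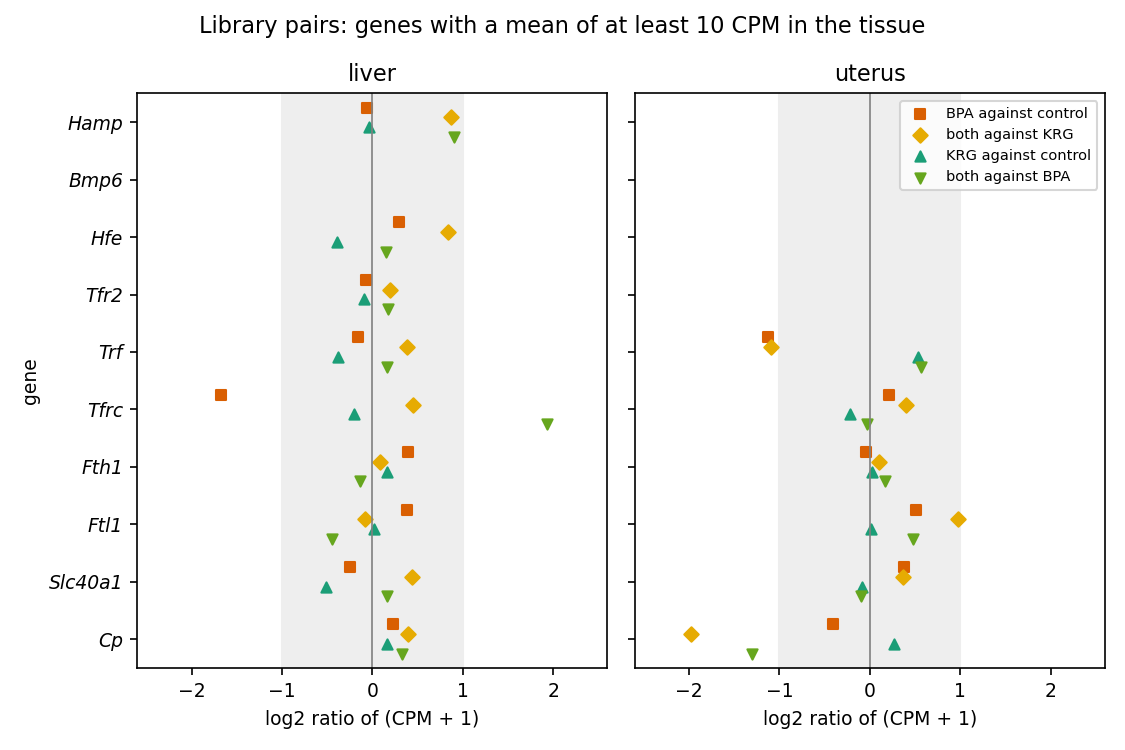
Log2 ratio of (CPM + 1) for 4 library pairs per tissue, for members that averaged 10 CPM or more there; the grey band is less than 2-fold and each point is 1 pair. In liver only Tfrc leaves the band (BPA against control below, both against BPA above), and in uterus Trf and Cp leave it on the low side.

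The tissues differed far more than the treatments did. In the edgeR fit over all 8 libraries with treatment as a term, 8 of 9 members tested were higher in liver at an adjusted p under 0.05. In either direction, 68.5% of 14071 genes were called, 4265 higher in liver and 5374 lower (DESeq2: also 8 members, 71.8% in either direction). Tfrc was tested and did not pass, and Bmp6 was not tested. The members were chosen as iron genes of the liver, so their shared direction is not an independent result. Hamp and Tfr2 averaged 3.05 and 3.04 CPM in uterus and were in this fit with high liver levels. The largest differences were those of Hamp (8.41 ± 1.33, log2, SE), Tfr2 (7.34 ± 0.67) and Trf (6.45 ± 0.54), followed by Cp (5.14 ± 0.50). Ftl1 (2.94 ± 0.30), Slc40a1 (2.86 ± 0.16), Hfe (1.85 ± 0.39) and Fth1 (1.63 ± 0.25) differed less. In CPM, 7 of the 10 members had all 4 livers above all 4 uteri, and the ranges of Tfrc, Hfe and Bmp6 overlapped. The share of all genes separated in this way was not computed, so that count does not set the members apart from other genes.

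Tissue differences of this size depend on the scaling. With column totals in place of TMM the median over all genes was -1.15 instead of -0.19. Fth1 was then 0.68 above uterus in liver (1.60-fold, adjusted p = 0.0153) in place of 3.11-fold, and Hfe no longer passed (0.89, adjusted p = 0.0704). Tfrc passed under neither and changed sign, at 0.70 (adjusted p = 0.133) with TMM and -0.25 (adjusted p = 0.594) with column totals. Without the BPA libraries it was 1.14 with TMM (adjusted p = 0.00435), the one member whose call turned on a single treatment.

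The receptors split between the tissues. In liver there were 14.7, 53.4, 15.99 and 13.1 counts of Tfr2 for each count of Tfrc in control, BPA, KRG and both. In uterus the same ratio was 0.318, 0.0745, 0.659 and 0.0657. Tfrc itself was even in uterus, at 11.7, 13.7, 9.93 and 13.4 CPM. Fth1 was the steadiest member there at 768, 744, 779.5 and 838 CPM, and Slc40a1 stood at 27.1, 35.4, 25.4 and 33.0.

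Light-chain ferritin stood higher in the uteri given BPA. Ftl1 was 168 CPM in control, 240 with BPA, 169 with KRG and 334 with both agents, so both BPA uteri were above both uteri without it. The steps were 1.43-fold for BPA against control (1.35 to 1.51) and 1.98-fold for both against KRG (1.88 to 2.08). The ratio of Fth1 to Ftl1 counts was 4.57 in control and 4.61 with KRG, against 3.09 with BPA and 2.51 with both. The additive BPA term was 0.69 ± 0.21 (log2, SE, edgeR adjusted p = 0.251), which did not pass. In the same 4 uteri the bladder lining markers summed to 338, 5930, 68.4 and 10260 CPM, the uterine epithelium markers to 4580.5, 4737, 2851 and 5619, and the skeletal muscle markers to 118, 226, 96.1 and 1787. All 3 sums were highest with both agents, as Ftl1 was, and their part in its level was not tested.

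Transferrin was lower in the uteri given BPA. Trf was 655 CPM in control, 300 with BPA, 949 with KRG and 444 with both agents. BPA against control was 2.18-fold lower (2.10 to 2.26) and both against KRG 2.14-fold lower (2.07 to 2.20). The BPA term was -1.17 ± 0.20, with an adjusted p of 0.0539 by edgeR and of 0.000594 by DESeq2, so the call rests on the tool. Within each arm the level with KRG was higher, 1.45-fold without BPA (1.41 to 1.49) and 1.48-fold with it (1.42 to 1.54), and the KRG term of 0.64 ± 0.20 did not pass (edgeR adjusted p = 0.999). Cp was 32.6, 24.3, 39.6 and 9.26 CPM, lowest with both agents (4.27-fold below KRG, 3.53 to 5.20), and its BPA term of -1.30 ± 0.44 did not pass (edgeR adjusted p = 0.285).

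Liver-type members had low counts in uterus that differed sharply between libraries. Hamp had 39 counts in control, 2 with BPA, 117 with KRG and 2 with both agents (2.91, 0.146, 9.01 and 0.135 CPM). Hamp2 had 106, 2, 74 and 0 counts, and Tfr2 stood at 3.74, 1.02, 6.54 and 0.879 CPM. For all 3 both uteri given BPA were below both uteri without it. For Hamp, BPA against control was 20.0-fold lower, with a wide interval (5.18 to 171).

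Markers of hepatocytes followed the same split. Alb, the albumin gene, was 239 CPM in the control uterus, 4.81 with BPA, 407 with KRG and 2.09 with both agents. The 10 hepatocyte markers summed to 667, 80.9, 1417 and 67.8 CPM, with 0, 2, 0 and 2 of the 10 at 0 (Cps1 and Ass1 in the BPA uterus, Ass1 and Tat with both agents). Set against the liver library of the same treatment, their median level in uterus was 1.42% in control, 0.0564% with BPA, 3.02% with KRG and 0.0217% with both. Hamp stood at 1.32%, 0.0688%, 4.17% and 0.0340% on that scale, Tfr2 at 1.88%, 0.539%, 3.51% and 0.411%, and Trf at 2.47%, 1.27%, 4.66% and 1.68%. Cp was at 8.91%, 5.65%, 9.67% and 1.72%. The part of hepatocyte RNA in the uterine levels of these genes was not tested. Bmp6 had 0, 3, 6 and 4 counts in uterus (up to 0.224 CPM is allowed in control), and Hfe stood at 5.31, 5.47, 11.01 and 4.53 CPM.

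**Figure D5:**
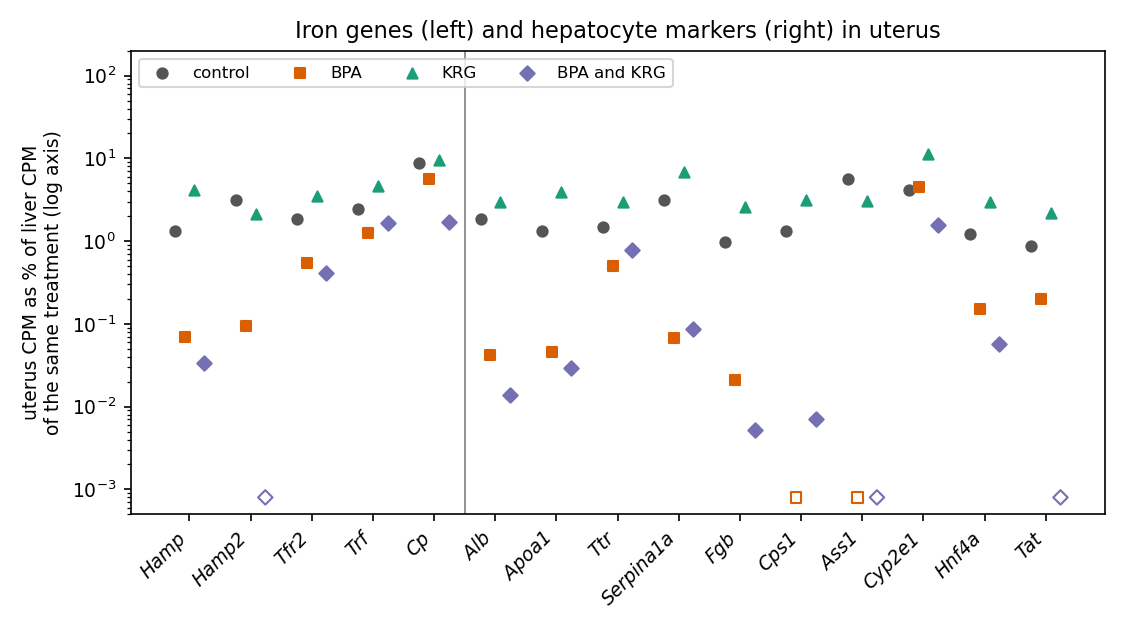
Uterus CPM as a percentage of the liver CPM of the same treatment, log axis, for Hamp, Hamp2, Tfr2, Trf and Cp (left of the line) and the 10 hepatocyte markers (right); open points at the bottom edge are 0. The BPA and both-agent uteri lie below the control and KRG uteri for most genes on both sides, with Alb at 0.0416% and 0.0138% against 1.86% and 2.94%.

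Against the background, BPA against control in uterus had 1 of 6 measured members at least 2-fold apart (Trf, lower) where 4.69% of genes were. Both agents against KRG had 2 (Trf and Cp, lower) where 11.6% were. Both agents against BPA had 1 (Cp, lower; background 3.22%), both agents against control 1 (Cp, lower; 8.76%) and KRG against control 0 (3.84%), a pair in which the median of all genes was shifted by -0.12. The additive edgeR fits called 0 of 6 members for BPA, where 2.22% of genes passed (DESeq2: 1 member, Trf, and 4.51%), and 0 of 6 for KRG, where 0% passed (415 genes had an unadjusted p below 0.05, and DESeq2 gave 0 members and 0.261%).

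The difference of the BPA effect between tissues was tested as an interaction. edgeR called 2 of 9 members, Hamp and Tfr2, where 2.02% of 14071 genes passed. DESeq2 called 3, these and Trf, where 3.29% passed. The BPA effect was higher in liver than in uterus by 5.74 ± 0.57 for Hamp (log2, SE, edgeR adjusted p = 0.00632) and by 2.53 ± 0.39 for Tfr2 (adjusted p = 0.0302). Both genes averaged under 10 CPM in uterus (3.05 and 3.04), below the level set for the fits within uterus, and were in this fit with high liver levels. The Hamp value rests on 2 counts in each of the uteri given BPA and the Tfr2 value on 14 and 13. The SE of each was taken back from the test statistic and is not a separate estimate of counting error. In the same fit 6 of the 10 hepatocyte markers were called, all in that direction, among them Alb at 6.62 ± 0.79 (edgeR adjusted p = 0.0111). For KRG, edgeR called 0 of 9 members and 0% of genes (707 genes before adjustment), while DESeq2 gave 0 members and 0.524% of genes with an adjusted p.

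Other iron genes were counted from lists of related function. In liver, the uptake list held Cd163, the macrophage receptor for haptoglobin-bound hemoglobin. It averaged under 10 CPM and is not in the counts of measured genes, at 3.07 CPM in control, 2.31 with BPA, 14.5 with KRG and 14.4 with both agents. Both livers given KRG were above both without it, by 4.73-fold against control (3.43 to 6.63) and 6.22-fold against BPA (4.21 to 9.49). Lcn2, which binds the iron-carrying siderophores of bacteria, was 3.34, 12.8, 30.3 and 41.0 CPM and likewise higher in both KRG pairs. Hp, haptoglobin, was 2339, 4058, 4687 and 7545 CPM, and Hpx, the heme carrier hemopexin, was 1536, 1186, 1530 and 2564. In the same libraries the macrophage and Kupffer markers without Cd163 summed to 594, 449, 624 and 837 CPM, the neutrophil markers without Lcn2 to 9.68, 10.1, 20.5 and 105, and the acute phase genes to 7780, 6836, 8765 and 10875. The part of those cells was not tested.

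Counts over the lists in liver were small. For BPA against control, 3 of 24 measured hepcidin regulators (Id1, Id3 and Fgl1) were 2-fold lower or more and 0 were higher, with a median log2 ratio of -0.14. Over all 6709 genes 4.28% were 2-fold apart in this pair (82 higher and 205 lower), with a median of -0.08. Of 9 uptake genes, 1 was higher and 0 lower, and of 12 storage, export and sensing genes, 0 were higher and 1 lower (App, 2.06-fold, 1.93 to 2.21). Of 19 heme genes, 1 was higher: Alas2, the erythroid heme synthesis enzyme, at 31.0, 64.5, 49.3 and 15.9 CPM, the order of the erythroid markers without it (3718, 7283, 5351 and 1768 CPM). None of 17 genes of iron-sulfur cluster assembly was 2-fold apart in any of the 5 liver pairs. Over all 6709 genes 2.34% to 4.28% were 2-fold apart in those pairs, so a count of 0 of 17 is near the background. No gene of these lists was called by edgeR for BPA or KRG in liver.

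In uterus the BPA fit called 2 genes on the hepcidin list and 1 on the uptake list, of 25 and 14 tested, where 2.22% of all genes were called (DESeq2 4.51%). Bmp2 rose, from 16.6 and 12.3 CPM without BPA to 46.5 with BPA and 53.4 with both (1.74 ± 0.25, log2, SE, edgeR adjusted p = 0.0311). The bladder lining markers split the same uteri that way (338 and 68.4 CPM without BPA, 5930 and 10260 with it), and their part in Bmp2 was not tested. Fgl1 fell (32.0, 0.146, 85.8 and 0.135 CPM, edgeR adjusted p = 0.00264), and so did Hpx (17.04, 0.219, 45.8 and 0.270 CPM, adjusted p = 0.00311). In the uteri given BPA, Fgl1 had 2 and 2 counts and Hpx 3 and 4. Both genes thus reached a mean of 10 CPM, the level set for this fit, only through the uteri without BPA. Both are made in hepatocytes, and their levels split the 4 uteri as the hepatocyte markers did. The part of hepatocyte RNA in these 2 calls was not tested. Ltf, which encodes lactoferrin, an iron-binding protein of uterine secretions and neutrophils, was 811, 122, 212 and 82.0 CPM (edgeR adjusted p = 0.0516), and the other neutrophil markers, without Ltf, summed to 355, 215, 1285 and 212 CPM. Heph, the membrane relative of ceruloplasmin, was 39.1, 44.3, 80.1 and 32.5 CPM, highest with KRG alone.

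Between tissues, edgeR called 68.5% of all genes, 4265 higher in liver and 5374 lower. Of 21 heme genes tested, 19 were higher in liver and 0 lower (median 1.90), and of 23 iron-sulfur genes, 21 were higher and 1 lower (median 1.64), where the median of all genes was -0.19. The hepcidin regulators were divided, 15 of 35 higher and 12 lower. So were the uptake genes (9 of 18 higher, 6 lower), the storage, export and sensing genes (7 of 14 higher, 4 lower) and the BMP readouts (1 of 6 higher, 2 lower). These counts and medians are on TMM scaling, and with column totals the median of all genes was -1.15.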

How the data were processed

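The 8 libraries (4 liver, 4 uterus, 1 per group) were QuantSeq 3' libraries from 500 ng of total RNA. The values are raw gene counts as deposited by the authors. Bowtie2, edgeR and the mm10 build appear in the submitters' processing notes without roles or versions. The sources used here do not give the counting tool, the use of strand or the treatment of reads with several matches. The members and the gene lists were chosen with earlier results of these data known.

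CPM was computed on column totals, with a pseudocount of 1 CPM in log2 ratios. Fits used edgeR 4.0.16 (R 4.3.3), quasi-likelihood test, TMM scaling and Benjamini-Hochberg adjustment over all genes tested, with DESeq2 1.42.0 as the alternative. They were a tissue fit with treatment as a term (3 residual degrees of freedom), additive BPA and KRG fits within each tissue (1), and a fit with tissue interactions (2). The SE printed beside an edgeR effect is the size of the effect divided by the square root of the test's F statistic. On simulated data with 200 changed genes, the liver BPA fit recovered 98.0% of 4-fold changes, the tissue fit 90.8%, and the interaction fit 55.1% of 4-fold and 80.4% of 8-fold changes. The simulated counts followed the model of each fit, with a common dispersion for all genes. Those shares do not show what is recovered from genes that depart from the model, such as by an interaction of the agents. Genes were named by rule: all members, list genes 2-fold apart in both pairs of a factor, at most 3 list genes with the largest ratios, and the 5 genes nearest to Hamp. Each library is 1 sample of unstated origin, so p-values set effects against the spread left between these libraries only. RefSeq (GRCm38.p6) gave promoters and GENCODE M21 the UTRs and coordinates.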

Additional observations from a re-analysis of the deposited data

Results flagged for a closer look

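The interaction test of BPA with tissue called 2 members, Hamp and Tfr2 (edgeR, 8 libraries, 1 per group). For Hamp the BPA effect was 5.74 higher in liver than in uterus on the log2 scale (adjusted p = 0.00632). The uteri had 39 counts in control, 2 with BPA, 117 with KRG and 2 with both agents. For Tfr2 the difference was 2.53 (adjusted p = 0.0302), with 3.74, 1.02, 6.54 and 0.879 CPM in the same uteri. In liver Tfr2 spanned 1.15-fold. Both genes averaged under 10 CPM in uterus (3.05 and 3.04), below the level set for the fits within uterus, and were in this fit with high liver levels. The differences thus rest on few uterine counts, 2 and 2 for Hamp and 14 and 13 for Tfr2 in the uteri given BPA. The hepatocyte markers summed to 667, 80.9, 1417 and 67.8 CPM in those uteri, and their part in both differences was not tested.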

How the results depend on the processing

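No paired analysis by replicate number was possible because each group holds 1 library, and the tissue fit instead matched liver and uterus by treatment. The tissue fit called 7 to 9 members under the alternatives run, 8 to 9 when 1 treatment was left out at a time. Counts of genes at least 2-fold apart rose when genes of low level were admitted, from a mean of 10 CPM to 1 CPM and to no filter. In liver they rose to 592 and 635 for BPA against control, 317 and 368 for KRG against control, 527 and 586 for both against BPA, 423 and 493 for both against KRG, and 370 and 416 for both against control. In uterus the same counts were 975 and 1054, 735 and 817, 663 and 730, 2019 and 2191, and 1657 and 1777. With a pseudocount of 5 CPM, the count was 188 for BPA against control in liver and 183 for both against BPA in uterus. Members at least 2-fold apart in uterus, both against control, went from 1 to 2 with TMM scaling, DESeq2 size factors or totals without Rn45s, since Ftl1 (0.99) then passed 1.

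DESeq2 called 463 genes for BPA by tissue, 28 for KRG by tissue, 26 for BPA and 49 for KRG in liver, and 415 for BPA and 24 for KRG in uterus. Without a filter edgeR called 32 and 25 genes in liver and 628 and 3 in uterus, and with column totals 91 for BPA in uterus. For BPA in uterus, members called went from 0 to 1 with DESeq2 (Trf) and to 3 without a filter (Hamp, Tfr2 and Trf). The cause of these changes between tools was not tested. Single libraries, 1 residual degree of freedom and the 46 counts of Tfrc in the BPA liver limit what these values can show.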
